A study of Mus musculus with 2 samples.

Results

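The regions described here are the Suz12 peaks wider than 5 kb in mouse E14 embryonic stem cells of wild-type genotype after 72 h of differentiation. They were chosen by width alone, the end minus the start in the deposited peak list, and number 223 of 3373 peaks. The cells were grown in serum medium that held 1 µM all-trans-retinoic acid and no leukemia inhibitory factor for those 72 h, and Suz12 was located by ChIP-seq (sequencing of immunoprecipitated chromatin) with a rabbit antibody. The series also holds a Suz12 knockout (Suz12[-/-]) library in serum at 0 h, which was not analysed here. Each genotype has 1 library, so no value below has a replicate check, no comparison between genotypes or times was made, and no p-value is given. The list holds peaks without read counts; depth is therefore unknown, and no expression was measured.

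Suz12 is a core subunit of Polycomb Repressive Complex 2, which methylates lysine 27 of histone H3. In embryonic stem cells the complex sits at CpG-rich promoters of silent developmental genes, and most such sites are short. At some genes for transcription factors that specify cell lineages, and over the Hox clusters, its domains extend over many kilobases.

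A few sequences at such regions are shown first. The promoters of Six3 and Nr2e1 belong to the widest peaks that hold a single coding start in the RefSeq promoter table, and those of Lhx8 and Barx1 stand at the low and the high end of CpG density among genes with a wide peak at an end and the start in one. Hoxa9 and Hoxd11 tie with Lhx8 at 1.33 CpG per 100 bases, and Grik3 ties with Barx1 at 16.7. Each line gives the 250 bases before the start, read 5′ to 3′ on the strand of the gene from RefSeq on build GRCm38, with every CG dinucleotide in capitals.
Six3 promoter (chr17:85620584-85620833, plus strand): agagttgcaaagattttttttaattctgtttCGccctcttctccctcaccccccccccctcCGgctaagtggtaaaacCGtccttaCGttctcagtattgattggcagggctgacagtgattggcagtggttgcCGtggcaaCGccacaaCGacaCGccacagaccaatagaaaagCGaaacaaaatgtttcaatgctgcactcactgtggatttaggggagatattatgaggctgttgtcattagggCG
Nr2e1 promoter (chr10:42583591-42583840, minus strand): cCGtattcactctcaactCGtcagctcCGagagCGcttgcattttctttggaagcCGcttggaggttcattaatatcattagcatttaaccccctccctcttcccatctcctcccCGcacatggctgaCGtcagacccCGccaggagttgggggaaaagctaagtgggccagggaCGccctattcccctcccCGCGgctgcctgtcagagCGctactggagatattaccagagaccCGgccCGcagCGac
Lhx8 promoter (chr3:154330561-154330810, minus strand): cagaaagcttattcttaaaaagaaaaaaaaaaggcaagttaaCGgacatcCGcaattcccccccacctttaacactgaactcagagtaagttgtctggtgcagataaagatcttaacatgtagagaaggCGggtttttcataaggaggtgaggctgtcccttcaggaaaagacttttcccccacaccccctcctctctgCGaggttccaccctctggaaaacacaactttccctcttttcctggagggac
Barx1 promoter (chr13:48662786-48663035, plus strand): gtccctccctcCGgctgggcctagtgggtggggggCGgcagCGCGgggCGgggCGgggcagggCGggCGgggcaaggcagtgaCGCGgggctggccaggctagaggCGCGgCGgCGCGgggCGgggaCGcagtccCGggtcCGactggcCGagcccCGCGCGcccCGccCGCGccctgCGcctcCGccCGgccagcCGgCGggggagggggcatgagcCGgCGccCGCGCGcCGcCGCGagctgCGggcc
These stretches hold 10 CG at Six3, 15 at Nr2e1, 4 at Lhx8 and 40 at Barx1, with a GC content of 48.8%, 58%, 46% and 85.6%. The motif CG reads the same on both strands, and 16409 of the 17274 coding promoters of 300 bases in the table hold it at least once. Six3, a homeobox factor of forebrain and eye, carried a 19739 bp peak, and its promoter had 4.67 CpG per 100 bases, below the median of 6.67 at genes with a wide peak.

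Wide peaks also covered microRNA genes. The wide peaks held 4 of the 1005 microRNA hairpins in the RefSeq table whole, and the other peaks held 26. For comparison, wide peaks were 6.61% of all peaks and 21.8% of the covered length. Mir124a-1, Mir124a-3, Mir3078 and Mir212, which wide peaks also overlapped, are not in the hairpin counts. The mature forms below are printed with the seed, bases 2 to 8, in capitals.
miR-196a-5p: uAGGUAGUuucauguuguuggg
miR-196b-5p: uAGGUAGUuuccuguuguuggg
miR-9-5p: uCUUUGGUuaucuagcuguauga
miR-9-3p: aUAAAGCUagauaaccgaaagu
miR-1247-5p: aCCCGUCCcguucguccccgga
The hairpins Mir196a-2 and Mir196b, whose 5p forms share the seed AGGUAGU, lay inside wide peaks of the Hoxc and Hoxa clusters, of 9675 and 15141 bp. The hairpin Mir9-3, which gives miR-9, a microRNA of neural progenitors, lay in a peak of 6476 bp on chromosome 7. The hairpin Mir1247 lay in the 7023 bp peak that also covered Dio3, the gene of a thyroid hormone deiodinase. Wide peaks further lay over Mir124a-1 (6549 bp) and Mir124a-3 (6094 bp), genes of a microRNA of neurons.

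The 223 wide peaks were 6.61% of all peaks and held 21.8% of the length that peaks covered. They spanned 5002 to 20581 bp. Their median width was 6870 bp and the quartiles were 5707 and 8943 bp. The other 3150 peaks had a median of 1763 bp. The threshold cuts through a continuous range of widths. Just above it stood peaks of 5002 bp at Dnajc22, 5004 bp inside Cyp26b1, 5026 bp inside Nr5a2, 5028 bp at Sox3 and 5062 bp far from any coding gene. Just under it stood peaks of 4992 bp beside Hlx, 4987 bp at Bhlhe41, 4983 bp at Gdf6, 4966 bp at Kcnk9 and 4954 bp at Pcdh17.

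The score is the authors' own value for each peak, and its scale is not given in the file. Of the wide peaks, 192 scored exactly 3100, 9 scored higher and 22 lower, down to 1343. The score reached 3100 in 201 of the wide peaks (90.1%), against 154 of the other peaks (4.89%), whose median was 523. Width and score come from the same signal, so these scores describe the wide peaks and lend no support to their choice. Chromosome 2 held the most wide peaks, 26 of its 303, followed by chromosome 5 with 23 of 242. The X chromosome had 2 of 53.

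**Figure D1:**
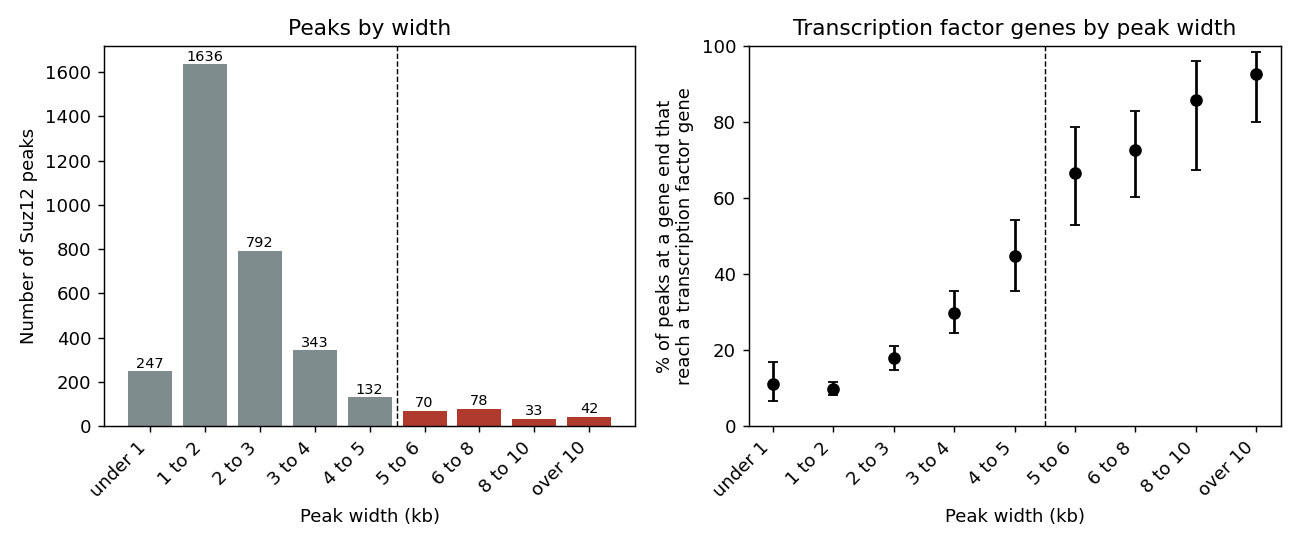
The left panel counts Suz12 peaks by width in kb, with wide peaks in red right of the dashed line at 5 kb. The right panel gives, for peaks no further than 2.5 kb from a coding gene end, the percentage that reach a transcription factor gene, with exact 95% intervals; it is 9.76% at 1 to 2 kb and 92.7% over 10 kb.

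Most wide peaks lay at genes for transcription factors. A gene was counted where a peak lay within 2.5 kb of either end of it. By this rule 216 of 21631 protein-coding genes (0.999%) had a wide peak, and 2540 (11.7%) had a peak of any width. Of the 216 genes with a wide peak, 154 (71.3%, exact 95% interval 64.8 to 77.2) encoded transcription factors of the classes used here. Among the 2324 genes whose peaks were all 5 kb or narrower the count was 247 (10.6%, 9.40 to 11.95), and among the 19091 genes without a peak it was 754 (3.95%, 3.68 to 4.24). These intervals cover counting error only and treat genes as independent, although neighbours share peaks.

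The share of peaks at transcription factor genes was higher in wider peaks on both sides of the threshold. Of peaks at a gene end, 11.0% reached such a gene at a width under 1 kb, 9.76% at 1 to 2 kb, 17.8% at 2 to 3 kb, 29.8% at 3 to 4 kb and 44.7% at 4 to 5 kb. Above the threshold the share was 66.7% at 5 to 6 kb (38 of 57), 72.7% at 6 to 8 kb (48 of 66), 85.7% at 8 to 10 kb (24 of 28) and 92.7% over 10 kb (38 of 41). A wider peak reaches more genes by its width alone, and the part of this in the shares was not tested.

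Homeobox genes, whose proteins bind DNA through a homeodomain, took the largest part together with Pax genes, a class of their own here. Of 154 homeobox (Hox included) and Pax genes with any peak, 92 (59.7%, 51.5 to 67.6) had a wide one. For other transcription factor genes the count was 62 of 247 (25.1%, 19.8 to 31.0), and for the remaining genes 62 of 2139 (2.90%, 2.23 to 3.70). Over all genes with a peak the share was 8.50%. The intervals of these 3 shares did not overlap, which is description and not a test. The grouping was made with earlier results of these data known, and neighbours that share a peak are not independent counts.

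Of the 25 widest peaks, 12020 bp or more, 23 lay at the end of a transcription factor gene. The widest, 20581 bp on chromosome 15 from 102948872 to 102969452, covered Hoxc11 and reached Hoxc10, which pattern the posterior body. Next stood the peaks at Six3 (19739 bp), at Lhx5 of the forebrain (17322 bp), at Nr2e1 of neural stem cells (16364 bp), at Uncx of somites (16313 bp) and at Pax7 of muscle and neural crest precursors (15601 bp). The peak at Skor1, a corepressor counted here as a cofactor, measured 15422 bp. Further down followed Zic2 (15289 bp), Hoxa9 with Hoxa10 (15141 bp), Hmx1 (15105 bp), Ebf3 (15091 bp), Hoxd9 to Hoxd11 (15071 bp), Pitx1 of the hindlimb (14266 bp), Dmrta2 of the cortex (13627 bp), Otx1 (13565 bp) and Barx1 of stomach and teeth (13317 bp). The rest of the 25 were at Nkx2-3 (13134 bp), Foxd3 of the neural crest (12622 bp), Hoxa10 with Hoxa11 (12501 bp), Sp9 (12295 bp), Olig2 of motor neurons and oligodendrocytes (12276 bp), Nkx6-1 (12240 bp), Pax6 of the eye (12023 bp) and Tbx1 of the pharyngeal arches (12020 bp), and 1 of 12318 bp inside Lhx2.

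Within the 4 Hox clusters the wide peaks lay at posterior genes, those numbered 9 to 13. Of 39 Hox genes 25 had a peak and 14 a wide one, in the Hoxa, Hoxc and Hoxd clusters. In Hoxa, peaks of 15141, 12501 and 9138 bp reached Hoxa9 with Hoxa10, Hoxa11 and Hoxa13. In Hoxc, peaks of 20581, 10301 and 9675 bp overlapped Hoxc9 to Hoxc12, and Hoxc13 lay 1887 bp away. In Hoxd, peaks of 15071, 7799 and 6441 bp overlapped Hoxd9, Hoxd10, Hoxd11 and Hoxd13, while none overlapped Hoxd12, beside a peak of 7970 bp at Evx2. In Hoxb the peaks were at Hoxb13 (3533 bp), Hoxb9 (3551 bp) and Hoxb6 (1281 bp). No peak was at either end of 14 Hox genes, which include Hoxb1 to Hoxb5, Hoxc4 and Hoxc5. Neighbouring Hox genes share peaks and are not independent counts.

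Within other gene families the spread of width was broad. All families described here were put together after their values had been seen. Of 9 Pax genes 7 had a wide peak, from Pax7 (15601 bp), Pax6 (12023 bp) and Pax9 (10373 bp) to Pax2, Pax3, Pax1 and Pax5 (7081, 5579, 5338 and 5205 bp). Pax8, a thyroid and kidney factor, had a peak of 2303 bp and Pax4 none. The peak counted for Pax3 lay 1792 bp beyond the gene.

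All 14 Nkx genes had a peak, and 9 had a wide one. These were Nkx2-3, Nkx6-1, Nkx1-1, Nkx6-2, Nkx2-1, Nkx2-5, Nkx1-2, Nkx2-9 and Nkx3-2, while Nkx2-6 (1205 bp) was among those with a narrower one. Nkx2-2, a factor of ventral neural tube and pancreas, had a peak of 3553 bp at its end and a wide peak of 7159 bp inside the gene. The wide peak lay 18 bp from the nearest other peak. With peaks within 3 kb joined, it was part of a domain of 15392 bp made of 3 peaks. Of 8 Lhx genes with a LIM homeodomain, 5 had a wide peak at an end, led by Lhx5 and Lhx1 (11312 bp). In several small families each member had a wide peak, namely Otx, Emx, En, Evx, Gsx and Fezf with 2 genes, and Hmx, Tlx and Onecut with 3.

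Families with paired or clustered genes often held both wide and narrower peaks, though the split did not always fall between neighbours. Dlx1 (8811 bp) and Dlx2 (8959 bp), neighbours that act in forebrain interneurons, each lay whole inside a wide peak, and Dlx5 (5118 bp) had 98.3% of its length covered, while its neighbour Dlx6 had 4187 bp. Irx1 (8312 bp), Irx2 (5738 bp) and Irx4 (5448 bp), all on chromosome 13, had wide peaks. Irx3 (4744 bp), Irx5 (4850 bp) and Irx6 (2004 bp) had narrower ones. Six3 and Six2 (10864 bp) had wide peaks, Six6 (3872 bp) a narrower one, and Six4 and Six5 none. Of 5 Zic genes, Zic2, Zic5 (7786 bp), Zic1 and Zic4 had a wide peak. The last pair shared 1 peak of 5093 bp, which covered 66.0% of Zic1 and 0.320% of Zic4. All 6 Dlx and all 6 Irx genes had a peak, while none of 7 Meis and Pbx genes, whose proteins bind DNA with Hox proteins, had one. Over all protein-coding genes 11.7% had a peak, so none of 7 is too small a count to set that family apart.

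Among genes with a peak, the share with a wide one was lower in forkhead, Sox, Gata, Klf, Hes and Hey genes than in Pax, Nkx or Zic genes. Most of these counts are small. The share over all genes with a peak was 8.50%. Forkhead, Sox and Gata genes stood above it, though the Sox and Gata intervals hold it. Prdm genes had a wide peak at 5 of the 7 that had any. Of 44 forkhead genes 26 had a peak and 9 (34.6%, 17.2 to 55.7) a wide one, led by Foxd3 and Foxb1 (10037 bp), while Foxe1 (4727 bp) and Foxa2 (4678 bp) fell just under the threshold. Of 19 Sox genes 13 had a peak and 3 (23.1%, 5.04 to 53.8) a wide one, at Sox14 (10273 bp), Sox21 (7961 bp) and Sox3 (5028 bp). The peak of Sox21 overlapped 0.184% of its gene. Sox1, an early neural factor, had 4845 bp and Sox2 1831 bp. Of 5 Gata genes with a peak 2 (40%, 5.27 to 85.3) had a wide one. These were Gata2 (9224 bp), a factor of blood, and Gata6 (8319 bp), a factor of endoderm, while Gata4 had 1727 bp at its end. Of 17 Klf genes 6 had a peak and 0 a wide one, and of 9 Hes and Hey genes, targets of Notch signalling, 5 had a peak and 0 a wide one. Both counts are small.

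Basic helix-loop-helix genes had a wide peak at 9 of the 48 with any peak (18.8%, 8.95 to 32.6). Olig2 led them, followed by Sim2 (8617 bp), Neurod2 (8589 bp), a factor of neurons, and Hand1 (7480 bp), a factor of heart and trophoblast. Zinc finger factors had 21 of 81 (25.9%, 16.8 to 36.9), led by Zic2, Sp9, Osr2 (10782 bp) and Prdm12 (9905 bp), a factor of pain-sensing neurons. The class of Nfi, Ebf, Tfap2, Grhl and other factors had 12 of 47 (25.5%, 13.9 to 40.3), led by Ebf3, Dmrta2, Tfap2a (11640 bp) and Rfx4 (7362 bp). T-box genes had 3 of 12, at Tbx1, Tbx2 (9679 bp) and Eomes (5654 bp). Nuclear receptor genes had 3 of 15, at Nr2e1, Esrrg (6298 bp) and Nr4a3 (5963 bp).

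**Figure D2:**
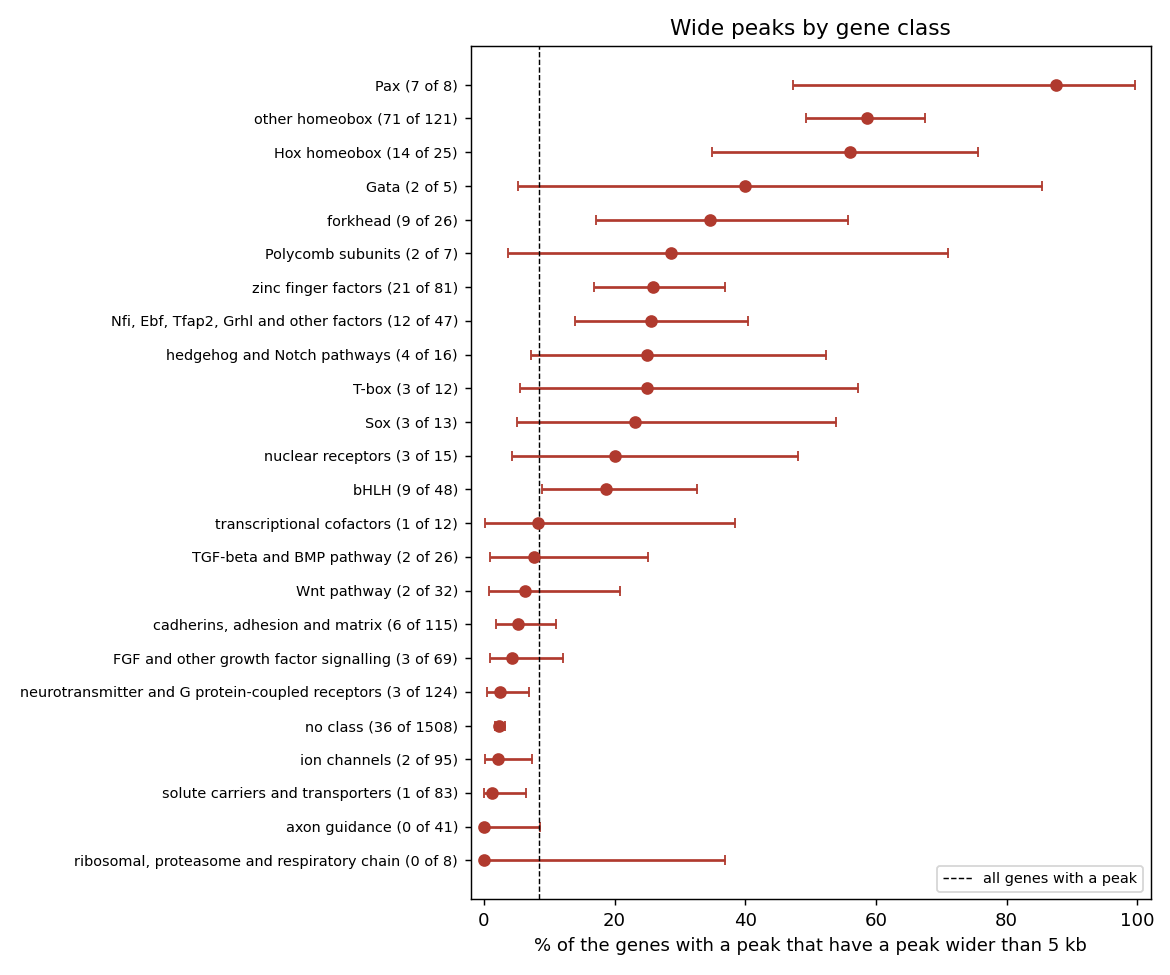
For each gene class with at least 5 genes that have a peak, the point gives the percentage of those genes whose peak is wider than 5 kb, with its exact 95% interval. The dashed line marks 8.50%, the share over all genes with a peak; Pax, other homeobox and Hox genes stand highest, at 87.5%, 58.7% and 56%.

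Of 184 signalling genes with a peak, 11 (5.98%, 3.02 to 10.4) had a wide one, an interval that holds the 8.50% over all genes with a peak. All 3 hedgehog ligand genes were among the 11. Dhh (6101 bp), Ihh (5892 bp) and Shh (5772 bp) encode the hedgehog ligands, and Dll4 (7692 bp) a Notch ligand. The others were Wnt7b (7946 bp) and Wnt1 (5210 bp), Gdnf (7412 bp), Fgf9 (6610 bp), the receptor gene Pdgfra (7604 bp), and Gdf7 (6377 bp) and Inhbb (5874 bp) of the TGF-beta superfamily. Of 19 Wnt genes 16 had a peak, and 14 of these were 5 kb or narrower, among them Wnt9b and Wnt3 (4462 bp each) and Wnt10a (4384 bp). None of 41 axon guidance genes with a peak had a wide one, and the interval, up to 8.60%, also holds 8.50%.

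Membrane protein genes were marked by narrow peaks. Channel, receptor and transporter genes had a wide peak at 6 of 302 with any peak (1.99%, 0.733 to 4.27). Wide peaks lay at the glutamate receptor genes Grik3 (7003 bp) and Grid1 (5485 bp), the adhesion receptor gene Adgrb1 (5088 bp), the potassium channel gene Kcnh3 (5480 bp) and Slc32a1 (8197 bp), which loads GABA and glycine into synaptic vesicles. The sixth, Catsper3, shared 1.14% of its length with the peak at Pitx1. Of 46 potassium channel genes with a peak, Kcnh3 was the 1 with a wide peak, and Kcnk9 (4966 bp) lay just under the threshold. Gad1 (9177 bp), which makes GABA and belongs to no class used here, also had a wide peak.

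Of 1508 genes of no class with a peak, 36 (2.39%, 1.68 to 3.29) had a wide one, and 9 of the 36 were neighbours that the peak did not touch. The genes named here were chosen after their values were seen. Islr2 (8816 bp) and Cbln1 (6366 bp), which organise axons and synapses, lay whole inside their peaks. Nrn1 had 2 wide peaks, of 6615 bp over 52.9% of the gene and of 5708 bp over 37.4% of it. Others were Elfn1 (7401 bp), a synaptic adhesion gene, Hs3st3b1 (7263 bp), a heparan sulfate sulfotransferase gene, Esrp1 (6143 bp), a splicing factor gene of epithelia, Hrk (5390 bp), an apoptosis activator gene, and Nptx1 (5346 bp), a neuronal pentraxin gene.

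Adhesion and matrix genes had wide peaks at 6 of 115 (5.22%, 1.94 to 11.0), namely Cilp2 (10488 bp), the protocadherin genes Pcdh10, Pcdh7 and Pcdh8 (6308, 6056 and 5706 bp), Bcan (5427 bp) and Igsf21 (5248 bp). Of 7 Polycomb subunit genes with a peak 2 had a wide one, among them Cbx8 (10037 bp) of Polycomb Repressive Complex 1, whose peak began 212 bp beyond the gene. No wide peak lay at any of 363 ribosomal, proteasome and respiratory chain genes, 8 of which had a narrower peak. Over all protein-coding genes 0.999% had a wide peak. Among the 8 the interval, up to 36.9%, holds the 8.50% over all genes with a peak.

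Wide peaks sat at coding gene ends more often than narrow ones, while their central parts did so about as often. Of the wide peaks 192 (86.1%, 80.9 to 90.4) came within 2.5 kb of a coding gene end, and of the other peaks 2318 (73.6%, 72.0 to 75.1). When the central 1 kb of each peak was used instead, the shares were 73.5% (67.2 to 79.2) and 71.5% (69.8 to 73.03), which overlap. This second measure was added after the data had been seen, and in peaks under 1 kb its window runs past the peak.

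Wide peaks often took in whole genes. A whole protein-coding gene lay inside 67 wide peaks (30.04%, 24.1 to 36.5) and inside 47 of the other peaks (1.49%, 1.10 to 1.98), and the part of width itself in this difference was not tested. No peak of either kind covered more than 1 coding gene whole. Of the 67 genes covered whole, 57 (85.1%) encoded transcription factors, such as Six3, Uncx, Zic2, Otx1, Barx1 and Foxd3. Outside this class the 10 genes included Skor1, Cilp2, Islr2, Dio3, Ddn, Gdf7, Cbln1, Ccno and Wnt1.

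Of the 216 genes, 14 were near a wide peak without being touched by it, and 9 of these belonged to no class. Such neighbours were Cir1, 2070 bp from the peak at Sp9, Bub3 beside Hmx2 (1799 bp), Cfap61 beside Insm1 (1989 bp), Metap1d beside Dlx1 (1793 bp) and Scaper beside Isl2 (2461 bp). Other long genes were touched only at their edge, with 0.0658% of Ehbp1 under the peak at Otx1 and 0.496% of Pcca under that at Zic2. When only overlapped genes counted, 74.3% (67.7 to 80.1) were transcription factor genes.

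The strand of a gene was known where RefSeq gives a promoter for it, for 17274 protein-coding genes. Among 165 pairs of a wide peak and such a gene, the peak reached the start alone in 68 (41.2%), both ends in 77 (46.7%) and the far end alone in 20 (12.1%). Among 1941 pairs of other peaks these shares were 71.5%, 12.1% and 16.4%. In genes longer than 20 kb, where a peak seldom reaches both ends, wide peaks were at the start alone in 38 of 51 pairs (74.5%, 60.4 to 85.7) and at the far end alone in 12 (23.5%, 12.8 to 37.5). Other peaks were at the start alone in 953 of 1060 (89.9%, 87.9 to 91.7) and at the far end alone in 104 (9.81%, 8.09 to 11.8). The 12 include genes that are neighbours of a marked gene, such as Catsper3, Ehbp1, Metap1d, Scaper, Cfap61, Inpp5a and Ldah.

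Around the start itself the wide peaks spread to both sides, and further downstream. The start is the outermost one in the RefSeq promoter table, and for 43 of the 131 genes below it lies over 100 bp inside the annotated gene. Coding genes without a start in that table were not counted. The peak counted at Pcca, with 13277 bp before the start, thus also covers all of Zic2. In 131 wide peaks that held exactly 1 tabulated coding start, the peak extended a median of 2719 bp before it and 4486 bp beyond it. A median of 64.8% of the peak length lay downstream. The longer arm ran downstream in 94 of the 131 (71.8%, 63.2 to 79.3). In 1218 other peaks with 1 tabulated start the medians were 530 and 1263 bp, and the longer arm ran downstream in 1049 (86.1%, 84.1 to 88.02). Leaving out genes with a start over 100 bp inside the gene, a choice made after seeing the data, gave 66 of 88 wide peaks (75%, 64.6 to 83.6) and 691 of 773 other peaks (89.4%, 87.004 to 91.5). In both cases the longer arm ran upstream more often in wide peaks, and the intervals do not overlap. The arms add up to the width by which the peaks were chosen, and the part of that choice in this difference was not tested.

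Single genes differed widely in this respect. At Six3 the peak ran 13520 bp before the start and 6218 bp beyond it, but 7226 bp of the upstream arm lie inside the annotated gene. The same holds for 8360 bp of the upstream arm of 9486 bp at Ebf3. At Nr2e1, whose start is the outer gene end, the peak ran 10065 bp before and 6298 bp beyond, and at Hoxa9 11294 and 3846 bp, with 7468 bp of that peak over the neighbouring Hoxa10. The opposite layout was seen at Pax7, with 2123 bp before the start and 13477 bp beyond it, at Tbx1 (1711 and 10308 bp), at Gata2 (1470 and 7753 bp) and at Dlx2 (451 and 8507 bp). Six2, a factor of nephron progenitors, was nearly even, with 5424 bp before and 5439 bp beyond.

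**Figure D3:**
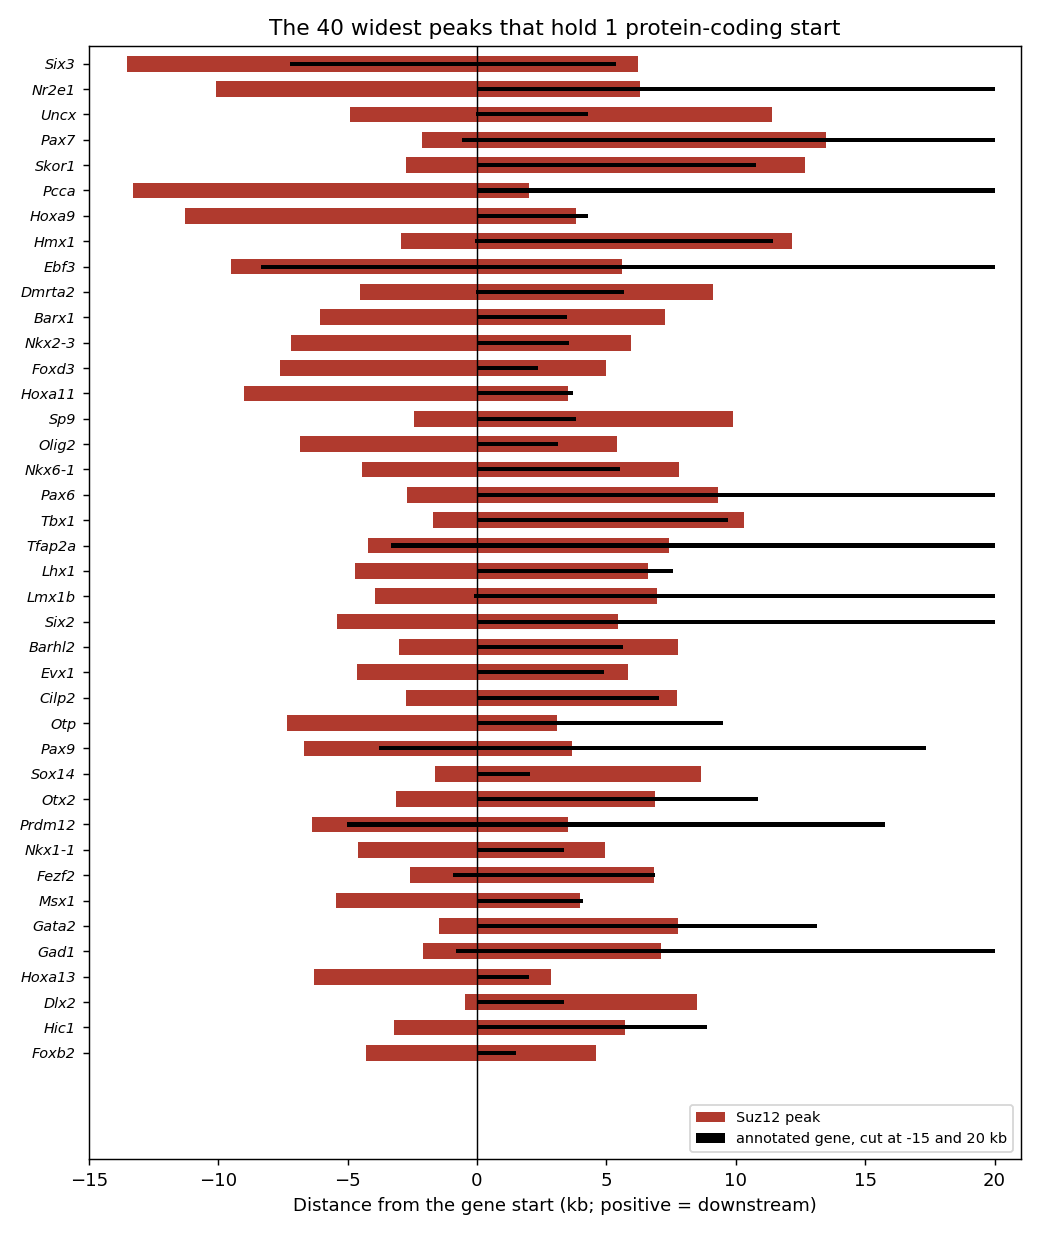
Each red bar is 1 of the 40 widest peaks that hold a single tabulated protein-coding start. It is drawn to scale from the start at 0 kb, with negative distances upstream and positive ones downstream. The thin black bar is the annotated gene, which begins left of 0 where the tabulated start is an inner one. The gene named is the one with the start, so the peak of Zic2 is drawn at Pcca. The bars reach from 13520 bp before the start at Six3 to 13477 bp beyond it at Pax7.

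Short genes were covered nearly from end to end and long genes in part. The selection by width sets part of this, and how far was not tested. All these peaks are wider than 5 kb, and the widest, 19739 bp, cannot hold a gene over 20 kb whole. These values are from the 131 wide peaks that held exactly 1 coding start of the promoter table. Of 42 such genes of up to 5 kb, 35 lay whole inside the peak, and the lowest cover was 80.5%. Gbx2, in a peak of 5116 bp with 2 starts, is not among them and was covered to 44.01%. In 33 genes of 5 to 10 kb the median cover was 81.4%, in 17 genes of 10 to 20 kb 37.8%, and in 39 genes over 20 kb 10.8%. The median peak width in these groups was 7049, 7970, 6593 and 6902 bp, and the peaks reached a median of 4373, 5098, 4400 and 3931 bp beyond the start. Genes with a wide peak had a median length of 8504 bp, genes with other peaks 27051 bp and genes without a peak 16782 bp. Transcription factor genes with a wide peak had a median of 6584 bp, and those with other peaks 9876 bp.

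**Figure D4:**
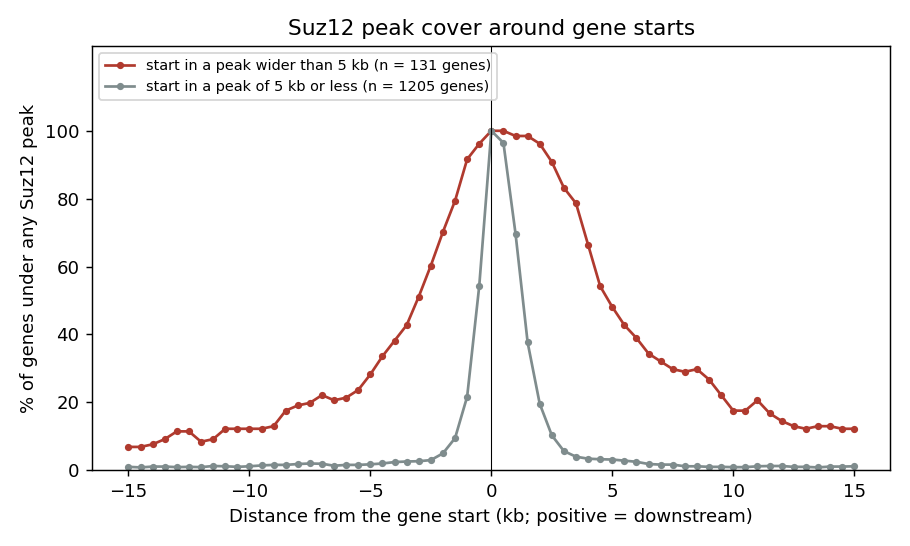
The lines give the percentage of genes under any Suz12 peak at each distance from the gene start in kb, for 131 genes with a wide peak at an end and the start in one (red) and 1205 with only narrower peaks at an end and the start in one (grey). At 5 kb downstream 48.1% of the red and 3.15% of the grey genes had a peak, and at 5 kb upstream 28.2% and 1.74%; the distance takes no account of gene length.

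The position 5 kb downstream of the start was under a peak at 48.1% of the genes with a wide peak at an end and the start in one, and the position 5 kb upstream at 28.2%. At 10 kb the values were 17.6% downstream and 12.2% upstream. In short genes these downstream positions lie past the gene end. For genes with only narrower peaks at an end and the start in one, the values at 10 kb were 0.913% and 1.16%. The widths of the peaks that chose the genes set the height of this profile.

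Promoters of genes with a wide peak had about the CpG density of those with a narrow one. Measured over 300 bases, 250 before the start and 50 after, promoters of genes with a wide peak had a median of 6.67 CpG per 100 bases (quartiles 4.33 and 8.67, 158 genes) and promoters of genes with other peaks 6.67 (3.67 and 10, 1724 genes). Promoters of genes without a peak had 4.00 (1.00 and 8.00, 15392 genes). Among transcription factor genes the medians were 6.33 with a wide peak, 6.67 with other peaks and 5.00 without. For starts that lay inside the peak itself the median was 6.67 in wide peaks (135 genes) and 7.67 in other peaks (1260 genes). The median GC content was 62% with a wide peak, 63.7% with other peaks and 55.7% without. The window is short against a peak of over 5 kb, so CpG content over the rest of the peak was not measured.

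**Figure D5:**
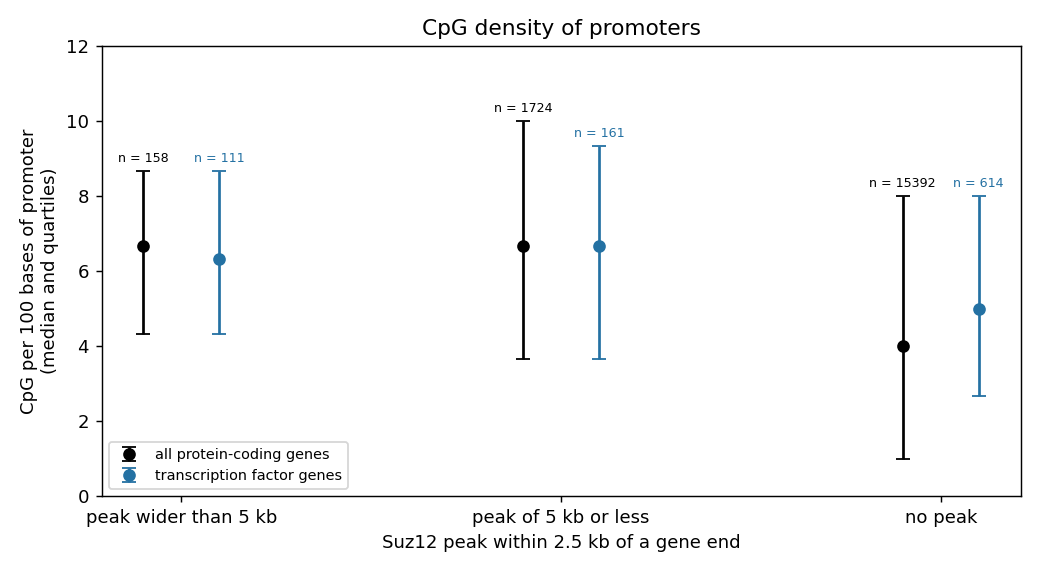
Points give the median CpG per 100 bases of promoter and bars the quartiles, for genes with a wide peak, with a narrower peak and without a peak, in black for all protein-coding genes and in blue for transcription factor genes. The medians of the first pair of groups lie at 6.67 each in black, above 4.00 for genes without a peak.

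Not all wide peaks lay at the end of a coding gene. Of the 31 that did not, 18 lay inside a protein-coding gene and 13 outside all of them. Of the 18, 14 lay inside a transcription factor gene. Another peak stood within 3 kb of 15 of the 31, and 7 shared a domain joined over 3 kb with a peak at a coding end. Of the 31 peaks 14 held an annotated start of a coding or non-coding gene, since internal starts are not gene ends. The widest of these, 12318 bp on chromosome 2 from 38346065 to 38358382, held a start of Lhx2. Starts of Lhx4 (8738 bp), Pax2 (8410 bp), Nkx2-2 (7159 bp), Lhx9 (6902 bp), Nfix (6103 bp), Pde10a (5593 bp) and Runx1 (5380 bp) lay in others.

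Inside genes but over no tabulated start lay peaks in Nr4a2 (7547 bp), Nfix (7255 bp), Skor2 (6279 bp), Runx2 (5778 bp), Sim1 (5759 bp), Otud7a (5477 bp), Tbx15 (5418 bp), Gata4 (5235 bp), Nr5a2 (5026 bp) and Cyp26b1 (5004 bp). Cyp26b1 encodes an enzyme that breaks down retinoic acid, and its peak had the lowest score of all wide peaks, 1343. Exons, introns and untranslated regions were not told apart, since the annotation used gives gene ends only. Peaks away from coding ends scored under 3100 in 8 of 31 cases (25.8%, 11.9 to 44.6) and those at coding ends in 14 of 192 (7.29%, 4.04 to 11.9).

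Outside coding genes, several wide peaks lay over non-coding genes. The peak of 9683 bp on chromosome 8 lay over Sox1ot, 3213 bp from Sox1, and that of 5246 bp on chromosome 3 over Sox2ot, 7942 bp from Sox2. A peak of 9516 bp on chromosome 6 lay over the host gene Mirc35hg, 17639 bp from Nrf1, and 1 of 7864 bp on chromosome 7 over Mir9-3hg. Peaks of 8000, 7754 and 5062 bp lay over the non-coding genes Gm35196, Gm14114 with Gm34978, and 9530059O14Rik, the nearest coding ends being Kcnrg (69707 bp), Kiz (15121 bp) and Topaz1 (173863 bp). A peak of 8078 bp lay 10737 bp from Cbx8, 1 of 5859 bp lay 4979 bp from Pou3f2, and 1 of 5258 bp lay 19846 bp from Aym1, none of them over any annotated gene.

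Long non-coding RNAs were common under wide peaks. A lncRNA or antisense RNA gene overlapped 99 of the wide peaks (44.4%, 37.8 to 51.2) and 591 of the others (18.8%, 17.4 to 20.2). For the central 1 kb the shares were 25.1% (19.6 to 31.3) and 15.5% (14.3 to 16.8), so the intervals were apart in windows of equal length too. Neither measure was among the planned results, and in the 247 peaks under 1 kb the window runs past the peak. Of the 111 such genes under wide peaks, 20 carry the name of a coding gene, as antisense, opposite-strand or overlapping transcripts do. Among them are Six3os1 (11083 bases under the peak), Nkx2-2os (7159), Sox1ot (6536), Dmrta2os (6112), Evx1os (5974), Prdm16os (5753) and Dlx1as (5160).

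Wide peaks lay close to other peaks. Another peak stood within 3 kb of 100 wide peaks (44.8%, 38.2 to 51.6) and of 561 other peaks (17.8%, 16.5 to 19.2). Joining peaks within 3 kb placed the 223 wide peaks in 206 domains with a median width of 8686 bp, and 15 domains held more than 1 wide peak. The domain from Evx2 to Hoxd9 held 4. Apart from the Hox clusters, 12 domains held a pair of wide peaks. They were beside Cbx8 (25722 bp), at Pax2 (23529 bp), at Dlx1 and Dlx2 (domain of 20219 bp), Zic2 and Zic5 (23795 bp), Hmx2 and Hmx3 (18532 bp), at Otp (18438 bp), at Hlx (18825 bp), at Nrn1 (13179 bp), a gene of neurite outgrowth, at Nfix (17573 bp), Mir9-3 (14687 bp), Sim1 (13823 bp) and Pou3f2 (12739 bp). How far such gaps depend on the peak caller was not tested.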

How the data were processed

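Suz12 ChIP-seq peaks of 1 wild-type library at 72 h were analysed. The authors' tools were Bowtie and MACS and their build GRCm38 (mm10), per the submitters' processing notes. For versions, parameters, control and pooling nothing is stated. Each deposited peak has a start, an end and a score of unstated scale. Reads were not used here, so depth is unknown.

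Genes came from RefSeq GRCm38.p6 (21631 protein-coding genes on 20 chromosomes), which gives outer gene ends. Strand and the outermost start came from the RefSeq promoter table, for 17274 of these genes. Classes were symbol patterns, and each gene entered the first class it matched. Members, classes and lists were chosen with earlier results of these data known. Named genes are those at the 25 widest peaks, at the 4 widest per class, in the 10 peaks overlapping most genes, at peaks away from coding ends and at the 5 peaks on either side of the threshold; others were chosen after values were seen. Intervals are exact (Clopper-Pearson) at 95%. Python 3.11.15, pandas 2.3.3 and SciPy 1.17.1 were used, and overlap functions were tested on simulated data.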

Additional observations from a re-analysis of the deposited data

How the results depend on the processing

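Of 65 alternative values, 44 stayed within the interval of the value reported or, for counts, lengths and medians, within 1.5 times it, and 21 moved. With peaks wider than 4 kb there were 355 peaks and 339 genes, of which 58.1% encoded transcription factors, and 21.4% of the peaks covered a whole gene. With peaks wider than 10 kb there were 42 peaks, 6.75% of the covered length and 51 genes; 97.6% of the peaks were at a coding end, 59.5% covered a whole gene, 54.8% had a neighbour within 3 kb, and 84.3% of the genes encoded transcription factors. Domains joined over 3 kb and wider than 5 kb held 37.2% of the length and 360 genes, 56.7% of them transcription factors, and can have no neighbour within 3 kb by construction. The share with a neighbour was 32.7% among peaks at or above the median score, 27.8% within 1 kb and 57.0% within 10 kb. With genes of any type 91.9% of wide peaks were at an end and 40.4% covered a whole gene. The central 1 kb, added after seeing the data, was at a coding end in 73.5%. The median observed over expected CpG was 0.74, on another scale.

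No paired analysis was possible because each genotype has 1 library and no test was run, and there was no replicate to leave out. Depth is unknown, so a narrow or missing peak is not evidence of less Suz12.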
